A study of Mus musculus with 4 samples.

Results

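The genes described here are 28 genes of cholesterol synthesis, of its control by SREBP proteins and of sterol transport, chosen by name from the 41543 gene symbols counted. All 28 had rows in every library and all 28 passed the filter on low counts, as did 16112 symbols in all. Messenger RNA was sequenced from E14TG2a, a line of mouse embryonic stem (ES) cells that was grown on gelatin with serum and LIF, a cytokine that keeps ES cells undifferentiated. The group labelled KAT6A KO, in which CRISPR/Cas9 editing had targeted the histone acetyltransferase KAT6A, had 2 libraries, and the Control group had 2. The labels name no drug or sterol treatment, do not say whether the KO cells were 1 clone or several, and do not say whether replicates were separate cultures, so each p-value reflects only how much these libraries vary, which may be technical.

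Cells build cholesterol from acetyl-CoA. The mevalonate steps give isoprenoid units that are joined into squalene, squalene is closed into lanosterol, and lanosterol is trimmed and reduced to cholesterol. When membrane sterol is low, SCAP escorts the SREBP transcription factors to the Golgi, where they are cut free to switch on these genes, and when sterol is high the INSIG proteins hold SCAP back in the endoplasmic reticulum. The nuclear receptor LXR answers to oxidised sterols and switches on genes that lower cell sterol. ES cells divide fast and need sterol for new membrane.

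Several of the promoters are shown first, because the genes share a known regulator and the study's title concerns CpG islands. The windows run from 250 bases before to 50 after a RefSeq start (build GRCm38.p6), 5′ to 3′ on the gene's strand. They belong to the 4 enzyme genes that were called lower in the libraries labelled KO by the test given below. The last belongs to Nr1h2, the member with the largest positive fold change. Hmgcs1 lies at chr13:119690101-119690400 on the plus strand. The other windows are on the minus strand, Cyp51 at chr5:4104648-4104947, Msmo1 at chr8:64733529-64733828, Sc5d at chr9:42264251-42264550 and Nr1h2 at chr7:44553916-44554215. Capitals mark the sterol regulatory element core TCACNCCAC, the related form TCACCTCA and the CCAAT box, each on either strand.
Hmgcs1: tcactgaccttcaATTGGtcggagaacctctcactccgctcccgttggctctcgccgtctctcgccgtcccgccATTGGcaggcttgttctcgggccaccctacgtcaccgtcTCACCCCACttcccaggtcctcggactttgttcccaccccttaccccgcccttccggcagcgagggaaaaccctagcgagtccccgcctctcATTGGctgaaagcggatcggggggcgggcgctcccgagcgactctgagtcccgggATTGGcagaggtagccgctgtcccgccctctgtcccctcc
Cyp51: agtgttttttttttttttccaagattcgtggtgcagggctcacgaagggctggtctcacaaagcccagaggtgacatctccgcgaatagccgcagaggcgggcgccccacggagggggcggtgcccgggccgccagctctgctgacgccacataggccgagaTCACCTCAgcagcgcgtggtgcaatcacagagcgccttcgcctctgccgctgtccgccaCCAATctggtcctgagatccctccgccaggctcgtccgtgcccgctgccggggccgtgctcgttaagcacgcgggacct
Msmo1: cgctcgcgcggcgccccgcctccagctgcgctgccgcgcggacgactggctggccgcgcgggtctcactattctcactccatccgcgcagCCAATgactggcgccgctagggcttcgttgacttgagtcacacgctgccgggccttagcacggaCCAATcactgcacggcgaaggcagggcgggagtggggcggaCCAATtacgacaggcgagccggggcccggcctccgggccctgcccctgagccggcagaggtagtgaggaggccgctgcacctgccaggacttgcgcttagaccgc
Sc5d: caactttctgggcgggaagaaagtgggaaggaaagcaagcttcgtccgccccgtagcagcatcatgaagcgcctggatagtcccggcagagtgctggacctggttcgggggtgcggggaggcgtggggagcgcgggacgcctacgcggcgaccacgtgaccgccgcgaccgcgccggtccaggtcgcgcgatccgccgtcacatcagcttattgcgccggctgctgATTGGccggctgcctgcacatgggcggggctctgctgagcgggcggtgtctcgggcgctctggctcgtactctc
Nr1h2: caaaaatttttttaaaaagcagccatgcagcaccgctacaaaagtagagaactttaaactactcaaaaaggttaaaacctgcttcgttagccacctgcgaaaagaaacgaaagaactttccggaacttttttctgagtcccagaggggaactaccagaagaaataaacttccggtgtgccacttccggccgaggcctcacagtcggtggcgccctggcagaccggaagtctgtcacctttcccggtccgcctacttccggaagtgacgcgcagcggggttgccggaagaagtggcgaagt

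The letters TCACNCCAC occurred in 1 of the 23 members with a RefSeq window, Hmgcs1, at position -137 from the start, against 1.46% of the 11975 tested genes with a window. Sqle, Fdft1, Fdps, Stard4 and Npc1 had no window, so these counts leave out Stard4 and Npc1, which were called lower. The form TCACCTCA, chosen after the windows had been read, occurred in Cyp51 and Hsd17b7, at positions -88 and -117, against 1.33% of tested genes. The CCAAT box, the site of the factor NF-Y that works beside SREBP, occurred in 20 of the 23 members (87.0%), against 42.8% of tested genes. The GC box GGGCGG occurred in 21 (91.3%), against 66.3% of tested genes, and the E-box CACGTG in 5 (21.7%), against 11.5%. Nr1h2 held none of these letters in its window, but other members with positive fold changes did. Mvk, Ebp, Srebf2 and Npc2 each held a CCAAT box and a GC box, and Scap a GC box and an E-box. The CpG observed over expected ratio was at least 0.6 in 21 of the 31 windows of members (67.7%), against 63.8% of the windows of tested genes. It was 0.848 for Hmgcs1, 0.894 for Cyp51, 0.935 for Msmo1, 1.04 for Sc5d and 0.988 for Nr1h2. These are letter matches in short windows, no binding was measured here, and a gene with several starts counted once if any of its windows matched.

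The libraries held 30185640 and 27494041 counts in the group labelled KO, and 35616899 and 37354623 in the Control group. Kat6a itself had 242 and 86.4 CPM in the libraries labelled KO, against 145 and 143 CPM in the controls (CPM here is the read count scaled for depth with TMM factors). Where the gene was edited is not given here, so its level cannot serve as a check, and directions are those of the labels. ES cell markers were present in all libraries, with summed levels of 5490 and 6098 CPM in the KO libraries and 4460 and 4518 CPM in the controls over 8 genes, 2 of them called higher. The 6 primitive endoderm markers summed to 46.2 and 105 CPM in the KO libraries and 209 and 214 CPM in the controls, and 3 of the 6 were called lower. Over 5 trophoblast markers the sums were 10.4 and 10.3 CPM in the KO libraries and 25.7 and 25.3 CPM in the controls, with 3 of the 4 tested called lower. By the same test, given below, 8.57% of all tested genes were called lower and 5.76% higher. Of 6 fibroblast markers, Lum was at 0 in every library and Dcn and Col3a1 were each under 0.1 CPM, and the list summed to 22.6 and 19.9 CPM in the KO libraries and 15.5 and 16.4 CPM in the controls. A smaller number of cells of one type and less RNA per cell cannot be told apart in such bulk libraries, and the part of the endoderm markers in the results below was not tested.

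By the edgeR quasi-likelihood test with Benjamini-Hochberg adjustment over all tested genes, at a threshold of 0.05, 6 of the 28 were called lower (21.4%), against 8.57% of all tested genes. These were Hmgcs1, Cyp51, Msmo1 and Sc5d among the enzymes, and Stard4 and Npc1 among the transport genes. No member was called higher, against 5.76% of all tested genes. At an unadjusted p under 0.05, 2 members were higher and 11 lower, against 15.8% and 18.1% of all tested genes. DESeq2 called 9 members lower and 1 higher, against 10% and 7.34% of its tested genes. The limma-voom fit called 6 lower and 0 higher, against 1509 and 971 of the 16112 tested genes. Without Control replicate 1, 2 members were called lower and 0 higher, against 4.09% and 1.55% of tested genes. Without Control replicate 2, 1 was lower and 0 higher, against 3.94% and 1.69%. Fold changes were below 0 in 22 of the 28, with a median log2 fold change of -0.19, against 49.6% and a median of 0.01 over all tested genes.

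**Figure D1:**
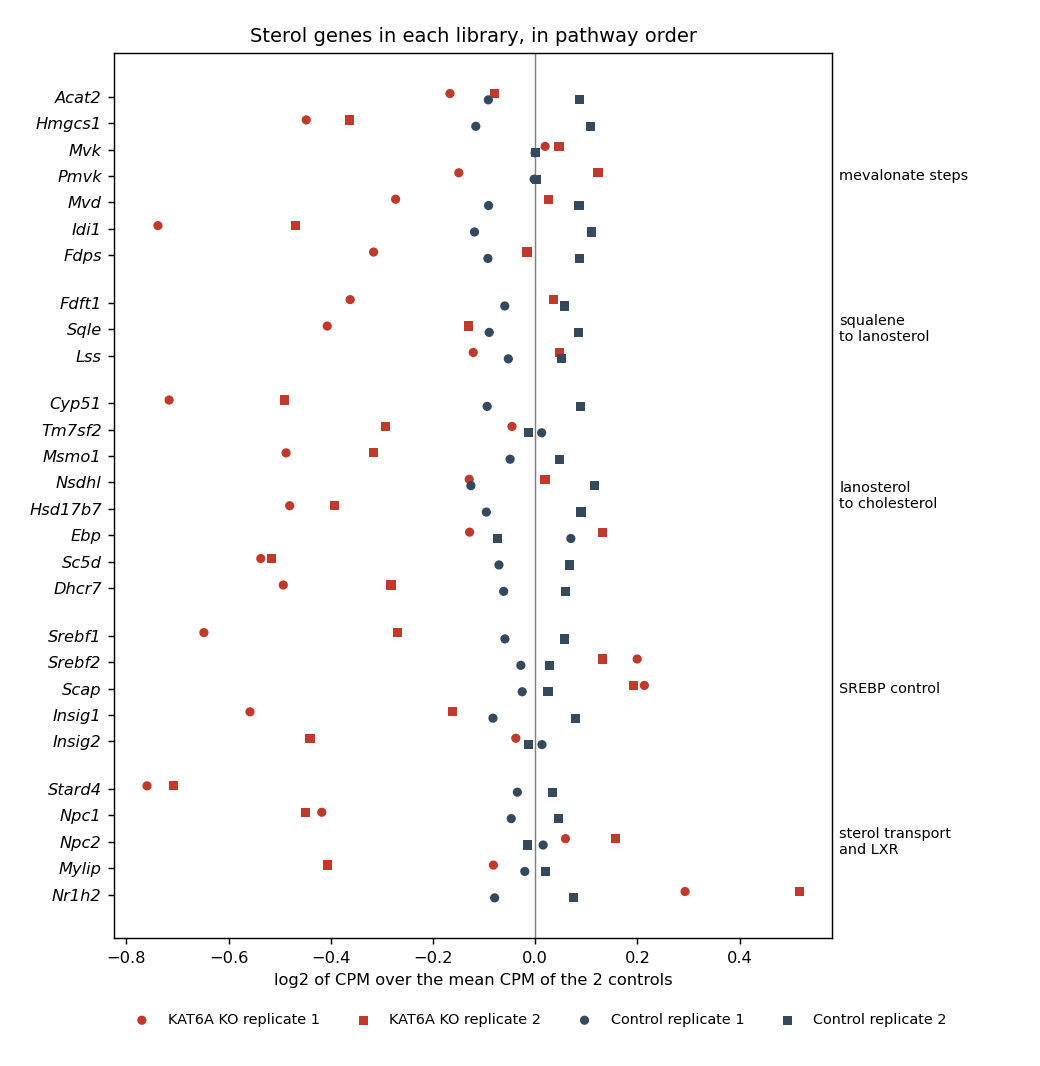
The log2 ratio of each library's CPM to the mean CPM of the 2 controls is plotted for the 28 genes in pathway order, with red points for the libraries labelled KAT6A KO and dark points for the controls (circles for replicate 1, squares for replicate 2). Both KO points lie left of both controls in 15 genes and right of both in 5, Mvk, Srebf2, Scap, Npc2 and Nr1h2.

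Groups did not overlap in 20 of the 28. Both KO libraries were below both controls in 15 (53.6%), against 32.8% of all tested genes, and above both in 5, against 31.5%. The KO libraries also differed from each other. KO replicate 1 was below KO replicate 2 in 17 of the 18 enzyme genes, against 49.6% of all tested genes, and Control replicate 1 was below Control replicate 2 in 16 of the 18, against 49.5%. Summed over the 18 enzymes, the level was 1112 and 1271 CPM in the KO libraries and 1378 and 1528 CPM in the controls. The groups did not overlap, and KO replicate 2 stood nearer to Control replicate 1 than the controls stood to each other.

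In the mevalonate steps 1 of 7 genes was called lower, against 8.57% of all tested genes. Hmgcs1, the synthase that joins acetyl-CoA and acetoacetyl-CoA into HMG-CoA (GRCm38 with GENCODE M21, chromosome 13, 119690379 to 119708260, plus strand), had 209 and 221 CPM in the KO libraries, against 263 and 307 CPM in the controls. Both KO values were below both controls. The log2 fold change was -0.41 ± 0.10 (SE), 1.32-fold lower, with an edgeR adjusted p of 0.047. This call sat at the edge of the threshold and ended with RLE scaling or a minimum of 1 CPM (adjusted p = 0.051 in both), with a GC-content offset (-0.23, adjusted p = 0.22), without Control replicate 1 (adjusted p = 0.11) or without Control replicate 2 (adjusted p = 0.49).

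Idi1, the isomerase of the isoprenoid units, had the largest drop of these steps in size but few counts. It had 68 and 74 counts in the KO libraries (2.23 and 2.69 CPM), against 122 and 149 counts in the controls (3.43 and 4.02 CPM). Its groups did not overlap, and its log2 fold change of -0.60, with a 95% interval of -1.11 to -0.09, did not pass (edgeR adjusted p = 0.10). Parts of its 3027-base transcript are near-identical in 3 other GENCODE genes (at least 95% identity over at least 300 bases). The stretches were 684 bases in Gm13502, 681 in Gm35570 and 323 in Gm48574, which overlaps Idi1 on the opposite strand. The count of Idi1 is therefore uncertain.

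Levels of the other mevalonate genes lay close together in the groups. Acat2, a thiolase that makes acetoacetyl-CoA, had 52.7 and 55.9 CPM in the KO libraries and 55.5 and 62.8 CPM in the controls. Mvk, mevalonate kinase, had 30.9 and 31.5 CPM in the KO libraries against 30.5 CPM in both controls, a log2 fold change of 0.03 that was -0.11 with a GC-content offset. Its partner Pmvk, phosphomevalonate kinase, had 45.5 and 54.9 CPM in the KO libraries, which stood on either side of the 50.4 and 50.5 CPM of the controls. Mvd, the decarboxylase that follows, had 39.4 and 48.4 CPM in the KO libraries against 44.7 and 50.5 CPM in the controls. Fdps, which joins isoprenoid units into farnesyl diphosphate, had 6.14 and 7.57 CPM in the KO libraries and 7.17 and 8.13 CPM in the controls. The KO and control ranges of Acat2, Pmvk, Mvd and Fdps overlapped, and none of the 5 passed the test. Acat2 shares a stretch of 1477 bases at 97.7% identity with Acat3. It also shares 445 bases at 98.7% identity with the neighbouring chaperonin gene Tcp1. A same-strand gene covers 26.7% of the exon bases of Fdps, so the counts of Acat2 and Fdps are less certain.

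The enzymes that carry farnesyl diphosphate to lanosterol were not called. Sqle, squalene epoxidase, had 141 and 171 CPM in the KO libraries, against 176 and 198 CPM in the controls. The groups were narrowly apart, and the log2 fold change was -0.26 with a 95% interval of -0.55 to 0.02 (edgeR adjusted p = 0.18). Fdft1, squalene synthase, had 100.1 and 132 CPM in the KO libraries and 124 and 134 CPM in the controls. Lss, which closes the ring system of lanosterol, had 104 and 117 CPM in the KO libraries and 109 and 117 CPM in the controls, with an interval of -0.26 to 0.20. In these 2 genes KO replicate 2 lay between the controls and KO replicate 1 below them. Fdft1 shares a stretch of 1249 bases at 97.4% identity with Gm6781, so its count is less certain. On the opposite strand, Ctsb covers 18.3% of the exon bases of Fdft1. The sources used here do not give the strand setting of the counting. Among genes called lower, opposite-strand genes cover 12.1% of the exon bases of Hmgcs1 (Gm48342), 3.76% of Cyp51 (Akap9) and 4.52% of Npc1 (Rmc1).

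Between lanosterol and cholesterol, 3 of 8 genes were called lower, against 8.57% of all tested genes, and both KO libraries were below both controls in 6 of 8, against 32.8%. Cyp51, the demethylase that acts first on lanosterol (chromosome 5, 4081145 to 4104746, minus strand), had 106 and 124 CPM in the KO libraries, against 163 and 185 CPM in the controls. No KO value came near a control value. The log2 fold change was -0.60 ± 0.11 (SE), 1.52-fold lower, with an edgeR adjusted p of 0.022. The call held with the GC-content offset (-0.52, adjusted p = 0.040) and ended without Control replicate 2 (adjusted p = 0.12).

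Msmo1, the methylsterol monooxygenase that starts removal of the remaining methyl groups (chromosome 8, 64718139 to 64733792, minus strand), had 100.1 and 113 CPM in the KO libraries, against 136 and 145 CPM in the controls. Its log2 fold change was -0.40 ± 0.10 (SE), 1.32-fold lower, with an edgeR adjusted p of 0.042. Sc5d, a desaturase late in the pathway (chromosome 9, 42251595 to 42264256, minus strand), had 26.4 and 26.8 CPM in the KO libraries, against 36.5 and 40.2 CPM in the controls. Here the KO libraries lay close together and below both controls, and the log2 fold change was -0.53 ± 0.10 (SE), 1.44-fold lower, with an edgeR adjusted p of 0.027. Both calls ended with the GC-content offset, where Msmo1 was at -0.27 (adjusted p = 0.14) and Sc5d at -0.34 (adjusted p = 0.084). They also ended without Control replicate 1 (adjusted p = 0.18 and 0.13) and without Control replicate 2 (adjusted p = 0.37 and 0.32).

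A further pair of late enzymes was lower in both KO libraries and missed the threshold. Hsd17b7, a ketosteroid reductase, had 23.2 and 24.6 CPM in the KO libraries, against 30.2 and 34.4 CPM in the controls (log2 fold change -0.44, 95% interval -0.71 to -0.16, edgeR adjusted p = 0.054). Dhcr7, the reductase that yields cholesterol from its dehydro precursor, had 60.9 and 70.5 CPM in the KO libraries, against 82.1 and 89.3 CPM in the controls (log2 fold change -0.38, 95% interval -0.64 to -0.13, edgeR adjusted p = 0.058). Both were called by DESeq2, and under the GC-content offset Dhcr7 was called (-0.45, adjusted p = 0.025) while Hsd17b7 was not (-0.28, adjusted p = 0.17).

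The remaining late enzymes differed less. Tm7sf2, a sterol reductase, had 11.3 and 9.49 CPM in the KO libraries against 11.7 and 11.5 CPM in the controls. It shares 12.1% of its exon bases with the same-strand gene Vps51. Nsdhl, a dehydrogenase of the demethylation steps on the X chromosome, had 32.4 and 35.9 CPM in the KO libraries against 32.5 and 38.4 CPM in the controls. Ebp, the sterol isomerase, also on the X chromosome, had 20.5 and 24.6 CPM in the KO libraries, on either side of the controls at 23.5 and 21.3 CPM. Their log2 fold changes were -0.16 for Tm7sf2, -0.05 for Nsdhl and 0.01 for Ebp, and the 95% interval of Ebp was -0.32 to 0.33.

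**Figure D2:**
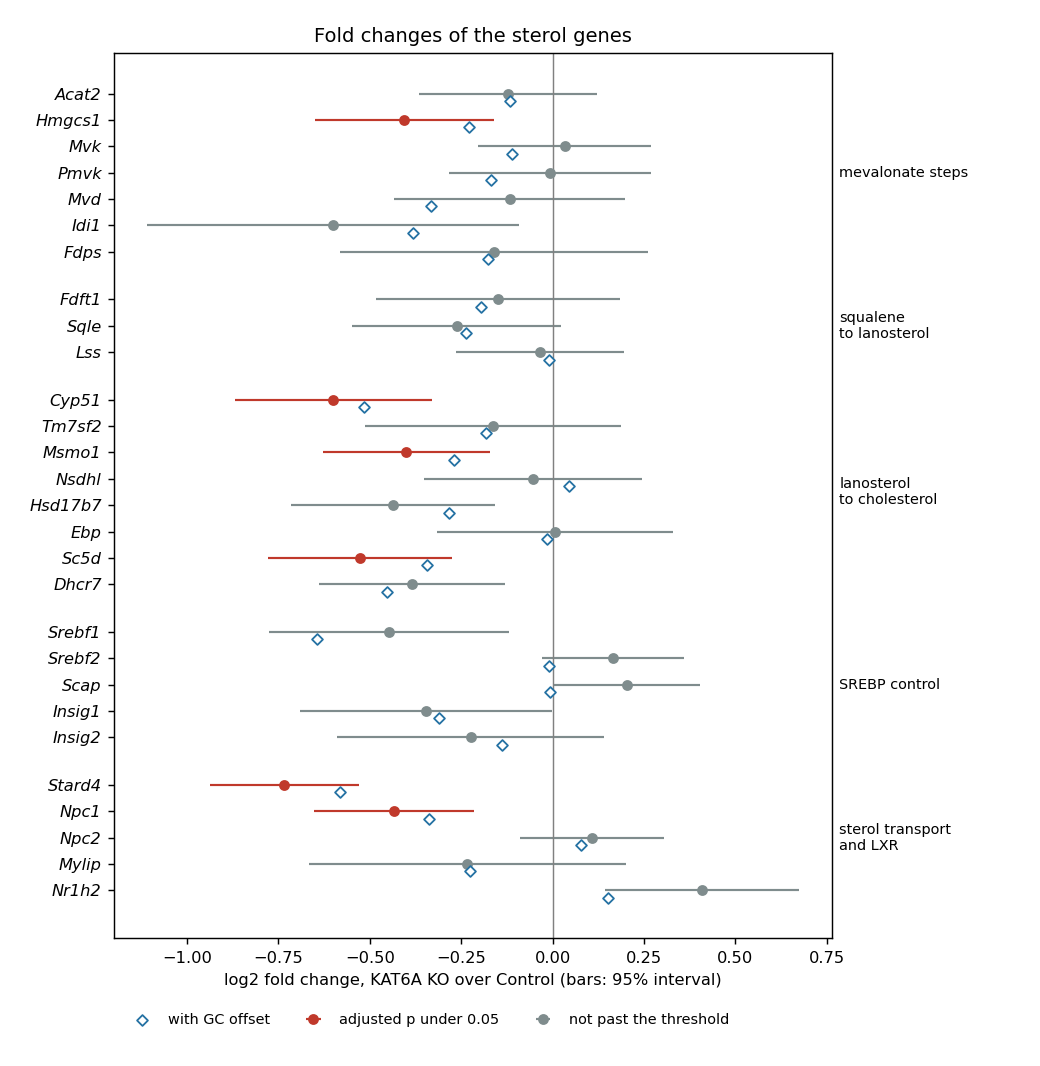
Points give the log2 fold change, KAT6A KO over Control, of each gene with its 95% interval, in red for an adjusted p under 0.05, and open diamonds give the estimate with a GC-content offset. The 6 red genes lie between -0.73 (Stard4) and -0.40 (Msmo1), and the diamonds of Srebf2 and Scap stand at -0.01.

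Among the SREBP control genes the 2 SREBP genes differed in sign, and none passed the test. Srebf1, which encodes the SREBP form tied mostly to fatty acid synthesis, had 63.6 and 82.8 CPM in the KO libraries, against 95.7 and 104 CPM in the controls. Srebf2, the form tied mostly to cholesterol synthesis, had 436 and 415 CPM in the KO libraries, against 372 and 387 CPM in the controls. Each gene separated the groups, Srebf1 downward and Srebf2 upward. The log2 fold change of Srebf1 was -0.45 ± 0.14 (SE, edgeR adjusted p = 0.0745) and that of Srebf2 was 0.17 ± 0.08 (SE, edgeR adjusted p = 0.20). The count of Srebf1 over that of Srebf2, in which library depth cancels, was 0.146 and 0.199 in the KO libraries and 0.257 and 0.268 in the controls.

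Srebf1 lies on chromosome 11, whose 1322 tested genes had a median log2 fold change of -0.46, close to its own value, while the medians of the chromosomes of the 6 called members lay between -0.17 (chromosome 13, Hmgcs1) and 0.09 (chromosome 8, Msmo1). With the GC-content offset Srebf1 was called lower (-0.64, adjusted p = 0.014) and Srebf2 stood at -0.01. Scap, the sterol sensor and escort of SREBP, had 74.6 and 73.4 CPM in the KO libraries, against 63.2 and 65.4 CPM in the controls, a log2 fold change of 0.20 that did not pass (edgeR adjusted p = 0.15) and that was -0.01 with the offset.

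Insig1, the anchor that SREBP itself switches on, had 75.6 and 99.6 CPM in the KO libraries, against 105 and 118 CPM in the controls. Insig2, the other anchor, had 25.8 and 19.5 CPM in the KO libraries, against 26.8 and 26.3 CPM in the controls. Each was lower in both KO libraries, but Insig1 was lowest in KO replicate 1 and Insig2 in KO replicate 2. Their log2 fold changes of -0.35 and -0.22 did not pass (edgeR adjusted p = 0.15 and 0.34). The count of Insig1 over that of Insig2 was 2.93 and 5.10 in the KO libraries and 3.93 and 4.48 in the controls, so the KO libraries stood on either side of the controls.

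Stard4 had the smallest adjusted p of all 28 genes. It encodes a soluble carrier that moves cholesterol between membranes and is itself a sterol-responsive gene (chromosome 18, 33199355 to 33213862, minus strand). Stard4 had 57.3 and 59.4 CPM in the KO libraries, against 94.7 and 99.3 CPM in the controls. Replicates lay within 5 CPM of each other and the groups were far apart. The log2 fold change was -0.73 ± 0.08 (SE), 1.66-fold lower, with an edgeR adjusted p of 0.0093. It was the only one of the 28 called in all 12 alternatives, with log2 fold changes from -0.77 to -0.58 and adjusted p up to 0.016.

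The 2 Niemann-Pick genes differed in sign. Npc1 encodes the membrane protein that passes cholesterol out of lysosomes (chromosome 18, 12189692 to 12236400, minus strand) and had 43.9 and 42.9 CPM in the KO libraries, against 56.7 and 60.5 CPM in the controls. The log2 fold change was -0.43 ± 0.09 (SE), 1.35-fold lower, with an edgeR adjusted p of 0.030. Npc2 encodes the soluble lysosomal protein that hands cholesterol to NPC1 and had 156 and 167 CPM in the KO libraries, against 151 and 148 CPM in the controls. Its log2 fold change was 0.11, with a 95% interval of -0.09 to 0.31 (edgeR adjusted p = 0.39). The count of Npc1 over that of Npc2 was 0.281 and 0.257 in the KO libraries and 0.375 and 0.408 in the controls. Npc1 was called with the GC-content offset (-0.34, adjusted p = 0.044) and not without Control replicate 1 (adjusted p = 0.21) or Control replicate 2 (adjusted p = 0.37).

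Nr1h2, which encodes LXR beta, had the largest rise in size and missed the threshold. It had 89.4 and 104 CPM in the KO libraries, against 69.0 and 76.9 CPM in the controls, with no overlap. The log2 fold change was 0.41 ± 0.11 (SE), 1.33-fold higher, with an edgeR adjusted p of 0.055. It was called higher by DESeq2 (adjusted p = 0.026), and its log2 fold change under the GC-content offset was 0.15 (adjusted p = 0.21). Mylip, an LXR-induced ubiquitin ligase that removes lipoprotein receptors, had 6.01 and 4.80 CPM in the KO libraries, against 6.27 and 6.45 CPM in the controls (log2 fold change -0.23, edgeR adjusted p = 0.40).

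**Figure D3:**
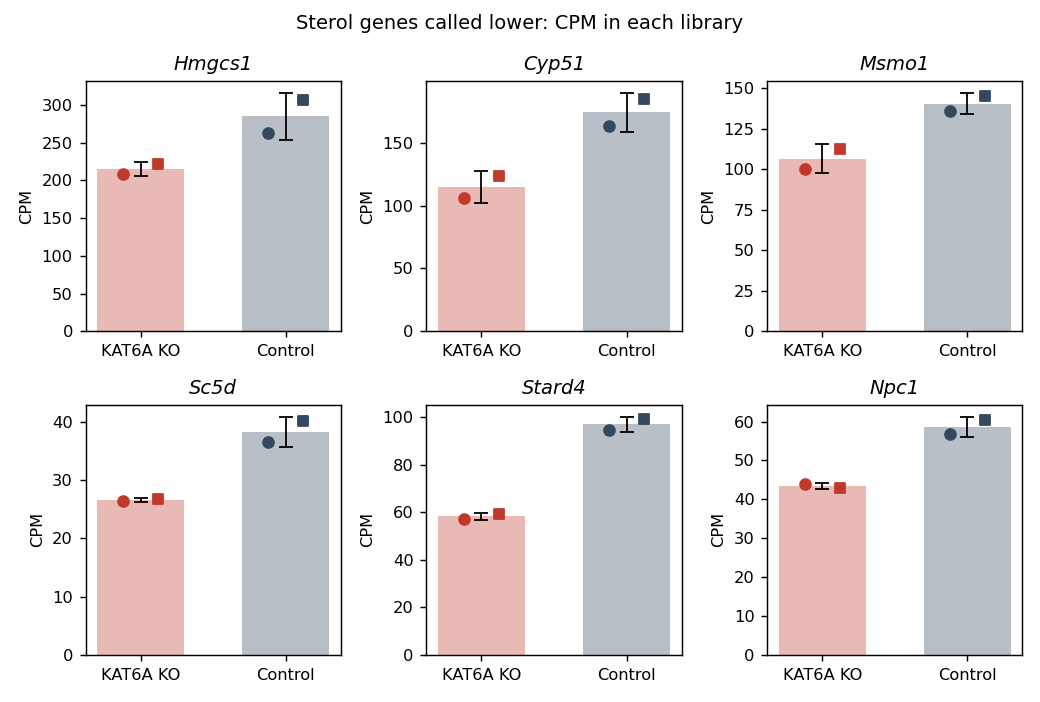
Bars give the mean CPM of each group and error bars the SD (n = 2) for the 6 genes called lower, with KAT6A KO at left and Control at right, and points are single libraries (circle, replicate 1, square, replicate 2). In each of the 6 both KO libraries lie below both controls, from 209 and 221 against 263 and 307 CPM for Hmgcs1 to 26.4 and 26.8 against 36.5 and 40.2 CPM for Sc5d.

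In the authors' deposited table, 9 of the 28 were lower and 1 higher at an adjusted p under 0.05, where 10.1% and 6.94% of the 14690 genes with an adjusted p were lower and higher. The 9 were the 6 named above with Hsd17b7, Dhcr7 and Srebf1, and the 1 was Nr1h2. For Stard4 the authors' deposited table gave -0.69 ± 0.13 (log2 fold change and SE) with an adjusted p of 1.83e-06, and Cyp51 -0.56 ± 0.13 (SE) and an adjusted p of 0.00046.

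Transcript GC content moved with the result. With tested genes ranked by GC content and cut into 5 equal groups, the median log2 fold change was -0.22 in the lowest group and 0.23 in the highest. All 6 members called lower had transcripts between 42.9% (Sc5d) and 46.2% GC (Cyp51) and stood in the 2 lowest groups, where 14.3% and 10.2% of all tested genes were called lower. Those 2 groups held 10 of the 28 members. The member with the highest GC content, Nr1h2 at 60.6%, was also the one with the largest positive fold change. With a GC-content offset in the model, 5 members were called lower, Cyp51, Dhcr7, Srebf1, Stard4 and Npc1, against 8.7% of all tested genes, and 0 higher, against 5.26%, and the median over the 28 was -0.21. The part of GC content in these differences was not tested further.

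**Figure D4:**
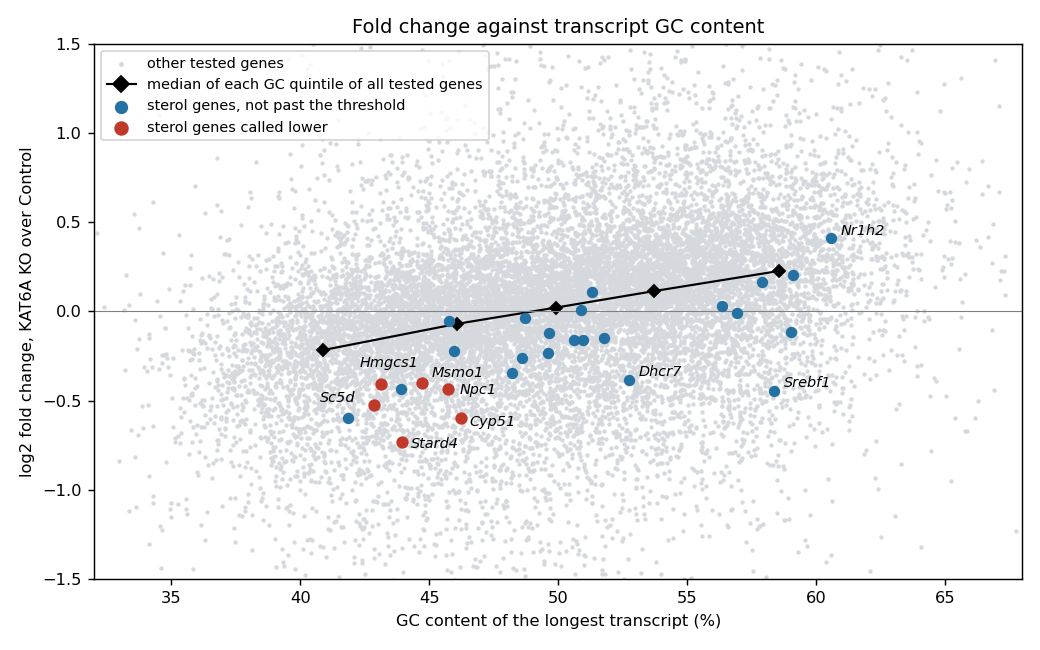
Each grey point is a tested gene, with the GC content of its longest transcript (%) against its log2 fold change, KAT6A KO over Control, and black diamonds join the medians of 5 equal groups by GC content (genes beyond the axes are not drawn). The 6 genes called lower (red) lie at 42.9% to 46.2% GC and below the black line, and Nr1h2 stands at 60.6% GC and 0.41.

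Neighbouring genes of lipid metabolism were examined in lists chosen by function, with earlier results of these data known. Of 45 tested genes, 10 were called lower and 3 higher, against 8.57% and 5.76% of all tested genes. Without the genes on chromosome 11, 7 of 41 were called lower and 3 higher. Of 13 fatty acid genes that SREBP1 is known to drive, 7 were called lower, against 8.57% of all tested genes, with a median log2 fold change of -0.51. Both KO libraries were below both controls in 10 of the 13, against 32.8% of all tested genes. The other 6 did not pass, and of these Elovl6, a fatty acid elongase, stood at 0.12 and Mid1ip1, a regulator of fatty acid synthesis, at 0.44. Me1, malic enzyme, had 31.3 and 39.8 CPM in the KO libraries, against 61.5 and 64.5 CPM in the controls (1.77-fold lower, edgeR adjusted p = 0.016). Scd1, a stearoyl-CoA desaturase, had 70.9 and 58.1 CPM in the KO libraries, against 100.0 and 113 CPM in the controls (1.65-fold lower, edgeR adjusted p = 0.018). The others called were Acsl3 and Fads2, and Acly, Acaca and Fasn on chromosome 11. Without chromosome 11 the count was 4 of 10 with a median of -0.36. In 7 of these 10 both KO libraries were below both controls. Of 5 genes of SREBP processing, 0 were called lower and 0 higher, against 8.57% and 5.76% of all tested genes. Fold changes were above 0 in 3 of these 5 and below 0 in 2.

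Of 6 partners and targets of LXR, 2 were called higher, against 5.76% of all tested genes, and 3 of the 6 had fold changes above 0. The LXR targets Abca1, a sterol exporter, at -0.24, and Lpcat3, a phospholipid acyltransferase, at -0.26, did not pass and, like Elovl6 and Mid1ip1, are named after their values were seen. Of 12 genes of sterol esterification and transport, 1 was called higher and 3 lower, against 5.76% and 8.57% of all tested genes. Rxra, the partner receptor of LXR, had 51.3 and 51.8 CPM in the KO libraries, against 34.9 and 37.3 CPM in the controls (log2 fold change 0.51, edgeR adjusted p = 0.022). Abcg1, an LXR-induced sterol exporter, had 20.96 and 17.4 CPM in the KO libraries, against 12.6 and 10.9 CPM in the controls (log2 fold change 0.71, edgeR adjusted p = 0.032). Soat1, which stores cholesterol as esters, had 52.6 and 51.9 CPM in the KO libraries, against 77.2 and 77.3 CPM in the controls (1.48-fold lower, edgeR adjusted p = 0.014). Its relative Soat2 had 6.93 and 6.40 CPM in the KO libraries, against 3.57 and 4.21 CPM in the controls (log2 fold change 0.78, edgeR adjusted p = 0.037).

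Further calls were made in sterol transport. Gramd1c, a sterol transfer protein at membrane contacts, had 1.02 and 1.75 CPM in the KO libraries, against 2.90 and 3.16 CPM in the controls (2.20-fold lower, edgeR adjusted p = 0.048). Lipa, the lysosomal lipase that frees cholesterol from esters, was 1.47-fold lower (edgeR adjusted p = 0.026) and is named because its value had been seen. The 9 genes that branch from the mevalonate pathway to other isoprenoids had a median of -0.07. Of these 9, edgeR, DESeq2 and limma-voom called 0. At an unadjusted p under 0.05 edgeR had 2 lower and 0 higher, against 18.1% and 15.8% of all tested genes. With the GC-content offset the calls of Soat2, Gramd1c and Lipa ended (adjusted p = 0.058, 0.10 and 0.068). Without 1 control or the other, all calls named in these 2 paragraphs ended at least once, and among the fatty acid genes those of Me1 and Scd1 held without each library.

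**Figure D5:**
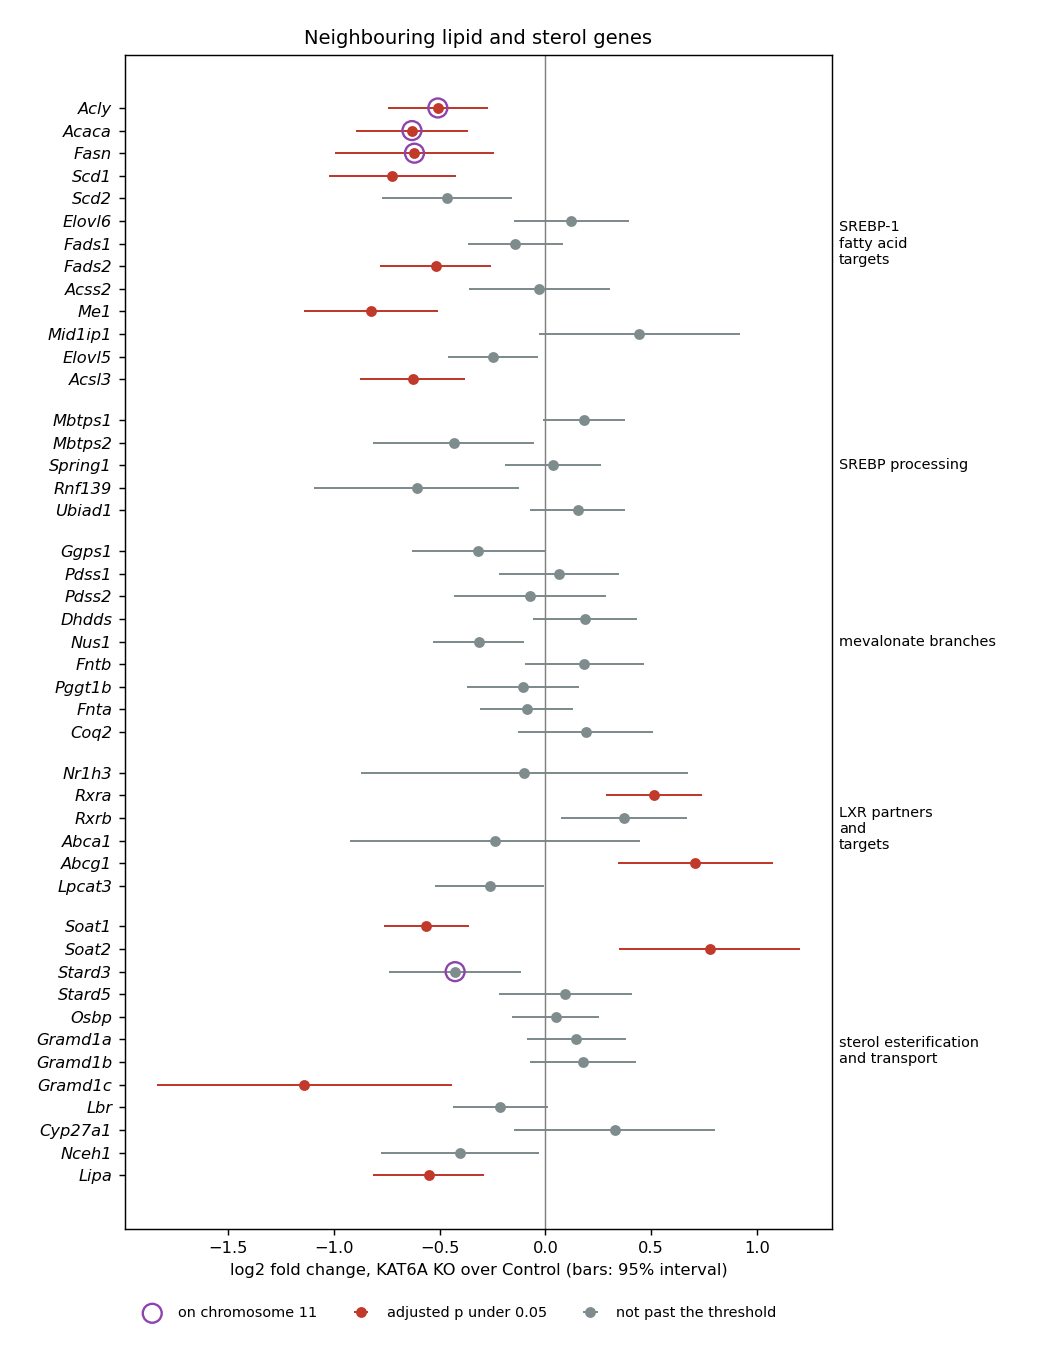
Log2 fold changes, KAT6A KO over Control, with 95% intervals are shown for the 45 tested neighbouring genes in 5 lists, in red for an adjusted p under 0.05 and ringed on chromosome 11. Red points lie left of 0 in the fatty acid list, from Me1 at -0.83 to Acly at -0.51, and right of 0 for Rxra, Abcg1 and Soat2.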

How the data were processed

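RNA-seq was analysed in 4 libraries, 2 labelled KAT6A KO and 2 Control. The authors deposited raw counts per gene made with featureCounts, per the submitters' processing notes. The sources used here do not give the aligner, annotation, build or strand setting. The authors' deposited DESeq2 table gives mean normalized counts (a signal), log2 fold changes with standard errors, Wald statistics (a score) and p-values. The deposited table of normalized counts was not used. Spring1 was counted under its older symbol, matched through the RefSeq gene table.

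Counts were fitted in R 4.3.3 with edgeR 4.0.16 (filterByExpr, TMM scaling, robust quasi-likelihood test, 4 libraries, no covariate), with Benjamini-Hochberg adjustment over 16112 genes and a threshold of 0.05. The scripts were tested on simulated data. Alternatives were RLE scaling, no filter, at least 1 CPM in 2 libraries, DESeq2 1.42.0, limma 3.58.1 voom, a replicate block, an offset for transcript GC content (lowess span 0.3, GENCODE M21) with and without the block, and each library left out. With 2 libraries a group, an exact permutation test of a single gene cannot pass the threshold, so none is given.

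Members and lists were chosen with earlier results of these data known. All members are named. Among neighbouring genes, up to 2 called genes per direction and list are named by size of change, and others are stated as such. Intervals are 95% model intervals. Promoter motifs were searched on both strands of 300-base RefSeq windows, and overlapping matches were allowed. A result of 1 neighbouring gene is not reported here, and it is in no count of those lists.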

Additional observations from a re-analysis of the deposited data

How the results depend on the processing

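The labels do not say whether replicate numbers pair the libraries. Over all tested genes the correlation of same-numbered deviations was 0.0889, which cannot exclude pairing. In the 18 enzyme genes replicate 1 was below replicate 2 in 17 in the KO group and in 16 in the Control group. With the replicate numbers as a block, 10 members were called lower and 1 higher, against 6 and 0 without it. Of all genes, 2147 were lower and 1613 higher, against 1381 and 928. With no filter, and with DESeq2, 1 member was called higher, against 1223 and 1114 of all genes. Leaving out 1 library gave 1 to 15 members lower and 0 to 4 higher, 648 to 4400 of all genes lower and 254 to 4020 higher, and 2 to 24 neighbouring genes lower and 0 to 10 higher. The lowest member counts came without a control, 2 without Control replicate 1 and 1 without Control replicate 2, and a lone library is then assumed to vary like the other group. The member median of -0.19 lay between -0.30 and -0.15.

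Some small fold changes turned sign, and none of these genes was called in the edgeR fit with all libraries and no covariate. With the GC-content offset and the block together, Mvd was called lower (-0.33, edgeR adjusted p = 0.047). With the GC-content offset, alone and with the block, Mvk was at -0.11 and -0.11, Nsdhl at 0.0435 and 0.0459, Ebp at -0.0141 and -0.0167, Srebf2 at -0.00960 and -0.0128, and Scap at -0.00744 and -0.00963. Ebp was at -0.0138 with no filter. Leaving out 1 library gave Pmvk -0.15 to 0.12, Mvd -0.28 to 0.0243, Fdft1 -0.37 to 0.0354, Lss -0.12 to 0.0468, Nsdhl -0.18 to 0.0745 and Ebp -0.13 to 0.13. The sterol element core was found in 1 of the 23 members with a window, against 1.46% of tested genes. Its short form CACNCCAC was found in 3, against 7.75%. The form TCACCTCA was found in 2, against 1.33%, but it was chosen after these windows had been read. Its share therefore cannot serve as support. The cause of these shifts was not tested. With 2 libraries a group, and KO libraries that differ more from each other (SD of the log2 CPM difference 0.483) than the controls do (0.274), changes of the size of Dhcr7 or Nr1h2 stand at the threshold.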
